A study of Mus musculus with 50 samples.

Results

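The data compared here are the wound beds of 6 non-regenerative mouse digits, 3 collected 14 days after amputation and 3 collected at 0 hours, out of 50 samples in the series (41 digits and 9 macrophage cultures). They were chosen by the group and time in their labels. The digits came from young adult male C57Bl/6 mice in which most of the distal terminal phalanx (P3) of a middle hindlimb digit was removed, while the same digit of the other hindlimb was amputated at another level. No transgene or drug treatment is named for these digits beyond isoflurane anaesthesia at amputation, and the wounds were left unsutured. The 0-hour digits are themselves amputated digits taken at the time of surgery, so they stand for fresh wound tissue and not for an intact digit. The labelled share of P3 removed was 62%, 62% and 75% in replicates 1, 2 and 3 at 0 hours and 63%, 77% and 80% in replicates 1, 2 and 3 at 14 days, so the groups differ somewhat in level as well as in time. The group is defined by removal of more than 67% of P3, and 3 of these 6 digits, at 62%, 62% and 63%, are labelled below that, in the range given for intermediate digits. They were kept in the group that their labels name. The labelled dates fell in an earlier and a later period, with 1 earlier and 2 later digits in each group.

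Each digit gave 1 library of polyadenylated RNA from a mixture of cell types, in which a change in the number of cells of a type and a change in RNA per cell cannot be told apart. A digit tip that has lost most of its bone heals by closing the epidermis over the stump and filling the wound with connective tissue. In such tissue fibroblasts secrete fibrillar collagens, which are hydroxylated and folded inside the cell, trimmed and cross-linked outside it, and organized by matricellular proteins. Metalloproteinases cut this matrix, osteoclasts resorb the bone stump, and osteoblasts lay down new bone. The comparison of 14 days with 0 hours asks which of these programmes were present in the non-regenerative stump 2 weeks after surgery.

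The libraries held 4747702 to 11121106 expected counts assigned to genes. Replicate 2 at 14 days stood apart from the other 5. It had counts for 13464 genes against 14949 to 16821 in the others, and its median Spearman correlation with the other digits was 0.578 against 0.917 to 0.925. In this library 73 genes were at 0 that had at least 100 normalized counts in each of the other 5 digits, and 404 genes were at 0 that had at least 20. Its counts moved with the base composition of the transcripts. Relative to the mean of replicates 1 and 3, the median log2 ratio of normalized counts plus 1 was -2.30 over 2814 genes whose longest transcript had less than 45% GC and 2.13 over 2510 genes above 55% GC, whereas replicate 3 over replicate 1 gave -0.084 and 0.134. The 404 genes at 0 had a median GC content of 43.9% against 49.8% for all genes tested. Counts of called genes and list medians are therefore given with and without this library. Each list median is over the members tested in that fit, and their number can differ between the fits. Normalized counts are on the scale of all 6 digits, and a fold change printed alone is that without replicate 2.

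**Figure D1:**
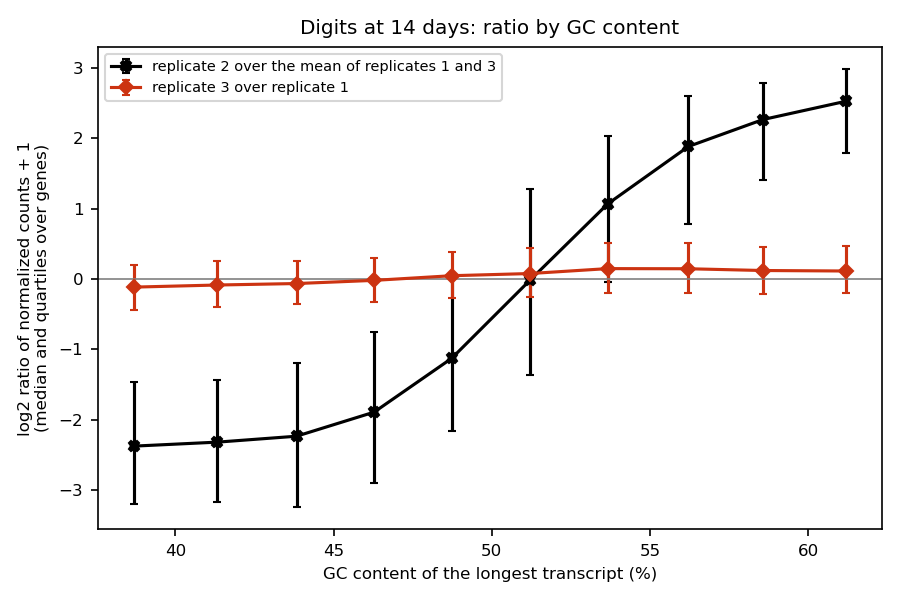
Ratio of normalized counts plus 1 between digits at 14 days (vertical axis, log2) in bins of the GC content of the longest transcript (horizontal axis, percent). Symbols are medians over genes and bars run from the lower to the upper quartile. The curve for replicate 2 climbs from below -2 to above 2, while replicate 3 over replicate 1 stays near 0.

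Without replicate 2, 247 genes were higher and 24 genes were lower at 14 days than at 0 hours, which is 1.75% and 0.17% of 14097 genes tested (1.92% in all). Calls required an adjusted p-value under 0.05 in edgeR's quasi-likelihood test together with more than a 2-fold difference between the group means of normalized counts plus 1. With all 6 digits the same test called 0 of 13567 genes, the smallest adjusted p being 0.0741, although 898 genes were higher and 146 were lower at an unadjusted p under 0.05. DESeq2 called 354 genes in all 6 digits (313 higher), and limma, with a weight for each library that came to 0.0408 for replicate 2 and 0.79 to 4.42 for the others, called 825 (708 higher, 5.22%, and 117 lower, 0.862%). The counts also depended on other single libraries. Starting from the 5 digits, edgeR called 482 genes without 0-hour replicate 1, 27 without 0-hour replicate 2, 42 without 0-hour replicate 3, 153 without 14-day replicate 1 and 103 without 14-day replicate 3. Of the 84 called genes that are leading genes or members of the gene lists, 18 were called in all 5 of these fits, among them Col11a1, Col12a1, Cpxm1, Cthrc1, Ctsk, Fbn2, Fkbp10, Itga11, Lox, Mmp14, P4ha3, Thbs2 and Tnc among the risers and Hba-a1, Hba-a2, Hbb-bs and Hbb-bt among those that fell.

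In replicate 2 itself, 194 of the 247 higher genes lay above all 3 digits at 0 hours and 17 of the 24 lower genes lay below all 3, where 38.8% and 49.9% of all tested genes did. These counts are a description only, since the same 0-hour digits chose the genes and the higher genes had a median GC content of 52.1% against 49.8% for all genes tested.

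Of the 12 genes with the largest rise, 6 are members of the 4 lists of matrix genes and matrix proteases described below, and of the 12 with the largest fall, 5 are members of the erythroid list. The plot of leading genes shows 12 of the largest rises and 11 of the largest falls. Among the rises were Cpxm1, a secreted carboxypeptidase-like protein, Wisp1, Cthrc1 and Fbn2 of the extracellular matrix, Itga11, a collagen-binding integrin of fibroblasts, Mfap2, a microfibril component, and C1qtnf3, a secreted protein of the C1q and TNF family. Cpxm1 on chromosome 2 (GRCm38, 130390775 to 130397574, minus strand) had normalized counts of 1.5, 4.09 and 3.65 at 0 hours and 427.5, 1683 and 401 in replicates 1, 2 and 3 at 14 days. All 3 digits at 14 days were far above all 3 at 0 hours, and the log2 fold change was 6.93 ± 0.34 without replicate 2 (SE, adjusted p = 0.003 by edgeR) and 7.97 with it (adjusted p = 0.0981).

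Cthrc1, which encodes a secreted protein made by activated fibroblasts, lies on chromosome 15 (39076932 to 39087121, plus strand). Its normalized counts were 46.5, 24.5 and 31.9 at 0 hours and 2978, 1741 and 1572 at 14 days. The groups were separated by more than an order of magnitude in every digit, with a log2 fold change of 6.08 ± 0.42 without replicate 2 (SE, adjusted p = 0.003 by edgeR) and 5.94 with it (adjusted p = 0.0741). Wisp1, a matricellular protein of the CCN family, had 6, 6.54 and 0 counts at 0 hours and 482.1, 55.7 and 353.6 at 14 days. Replicate 2 was the lowest of the 14-day digits for Wisp1 and was still above each digit at 0 hours. The other leading rises were called by the same test, with log2 fold changes without and with replicate 2 of 6.13 and 5.57 for C1qtnf3, 5.45 and 5.10 for Ptx3, a soluble pattern recognition protein of inflamed tissue, 5.31 and 4.80 for Fbn2, and 4.98 and 6.47 for Mfap2. Itga11 had 13.5, 18 and 7.29 counts at 0 hours and 498.2, 348.3 and 337.9 at 14 days, the closest agreement between the 3 digits at 14 days among the 12 genes.

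**Figure D2:**
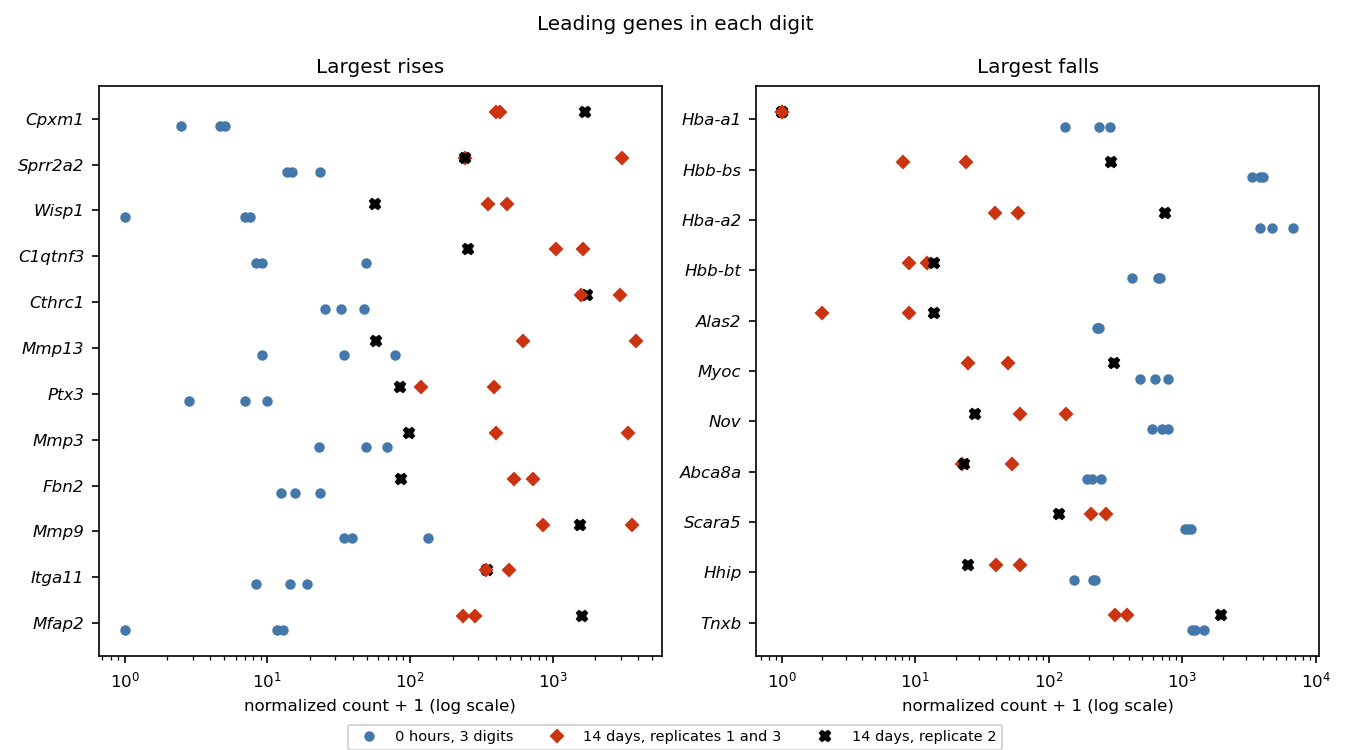
Normalized count plus 1 (horizontal axes, log scale) in each digit for the 12 genes with the largest called rise (left) and 11 of those with the largest called fall (right) without replicate 2. Each symbol is 1 digit and there are no error bars. The 0-hour and 14-day digits other than replicate 2 do not overlap for any gene shown, because that was required for the choice; replicate 2 lies among the 0-hour digits for Mmp13 and above them for Tnxb.

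Of 16 genes for fibrillar, network and associated collagens, 15 rose (1.75% of all tested genes did), and the 16th, Col14a1, had a log2 fold change of 1.54 (adjusted p = 0.103 by edgeR). Their median log2 fold change was 2.82 without replicate 2 and 3.03 with it, where the medians over all tested genes were -0.012 and 0.015. In all 6 digits, the lowest 14-day digit exceeded the highest 0-hour digit for 15 of the 16, against 9.43% of all tested genes. The summed normalized count of the list was 47093, 31445 and 39259 at 0 hours and 553482, 594242 and 349470 at 14 days. In this sum replicate 2 was close to replicate 1, but for single genes such as Col12a1 it was not. The transcripts of the list have a median GC content of 56.0%, and genes above 55% GC had a median log2 ratio of 2.13 in replicate 2. Its values for the list are therefore uncertain.

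Col1a1 and Col1a2 encode the chains of type I collagen, the main fibre of bone, tendon and scar. Col1a1 (chromosome 11, 94936224 to 94953042, plus strand) had normalized counts of 7817, 4447 and 5568 at 0 hours and 151400, 194400 and 93370 at 14 days. The groups did not overlap, and the log2 fold change was 4.36 ± 0.44 without replicate 2 (SE, adjusted p = 0.00781 by edgeR) and 4.62 with it (adjusted p = 0.167). Per length of transcript, in the deposited normalized TPM, Col1a1 stood at 152 to 284 at 0 hours and 3370 to 10500 at 14 days, and Col3a1, the type III chain of early granulation tissue, at 788 to 1250 and 8020 to 12900. The largest rise in the list was that of Col12a1, a fibril-associated collagen, with normalized counts of 310.5, 176.5 and 196 at 0 hours and 7923, 2618 and 6054 at 14 days. Its log2 fold change was 4.94 ± 0.35 (SE, adjusted p = 0.00324 by edgeR) without replicate 2 and 4.60 with it. Types V and VI, which join the large fibrils and the pericellular network, followed with log2 fold changes of 3.45 for Col5a1, 3.12 for Col5a2, 2.65 for Col6a1, 2.98 for Col6a2 and 3.89 for Col6a3. The smallest called changes in the list were those of Col4a2 and Col15a1, a basement membrane chain and a collagen of the basement membrane zone, with log2 fold changes of 1.51 and 1.56.

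Of 16 genes for the folding, trimming and cross-linking of collagen, 10 rose (1.75% of all tested genes did). The median log2 fold change of the list was 1.72 without replicate 2 and 2.27 with it. The called genes cover each step of the path. Serpinh1, the collagen chaperone HSP47, and Fkbp10, a prolyl isomerase of the endoplasmic reticulum, had log2 fold changes of 2.44 and 2.76. P4ha3, a prolyl 4-hydroxylase subunit, had normalized counts of 19.5, 16.3 and 21.9 at 0 hours and 344.6, 30.2 and 423.9 at 14 days. Replicate 2 was the lowest 14-day digit by a wide margin and still above the 0-hour digits, and the log2 fold change was 4.32 ± 0.26 (SE, adjusted p = 0.003 by edgeR) without it and 3.79 with it. Lox, a lysyl oxidase that starts the cross-links, had 189, 142.1 and 114 counts at 0 hours and 2422, 427.8 and 2476 at 14 days, again with no overlap. Its log2 fold change was 3.58 with replicate 2 and 4.05 ± 0.27 without it (SE, adjusted p = 0.003 by edgeR), a 16.5-fold rise where its relatives Loxl1 and Loxl2 rose 4.32-fold and 3.21-fold. The procollagen processing genes Bmp1 (1.61), Pcolce (1.69) and Adamts2 (2.02) and the lysyl hydroxylase Plod2 (2.41) made up the rest.

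Of 20 matricellular and other fibroblast matrix genes, 12 rose (1.75% of all tested genes did). All 20 had a positive log2 fold change without replicate 2, and the median was 2.71 without replicate 2 and 2.88 with it. Postn, which encodes periostin of the periosteum and of healing wounds, had normalized counts of 2115, 549.8 and 759.4 at 0 hours and 32870, 2147 and 18550 at 14 days. Replicate 2 stood just above the highest 0-hour digit, and the other 14-day digits stood above all of them. The log2 fold change was 4.49 ± 0.66 without replicate 2 (SE, adjusted p = 0.0264 by edgeR) and 3.97 with it (adjusted p = 0.338). Thbs2, a matricellular thrombospondin, and Tnc, tenascin-C of wound margins and developing tendon, had log2 fold changes of 4.86 ± 0.29 and 4.34 ± 0.35 (SE, adjusted p = 0.003 and 0.00442 by edgeR) without replicate 2 and of 4.54 and 3.88 with it. The small proteoglycans Aspn, Lum, Bgn and Fmod, which bind collagen fibrils, had log2 fold changes of 3.95, 3.48, 2.99 and 2.72. Sparc, a collagen-binding glycoprotein of bone and remodelling tissue, had 2.70, and Fstl1 had 1.92.

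Over metalloproteinases, related proteases and their inhibitors, the median log2 fold change was 2.54 without replicate 2 (18 tested) and 3.13 with it (16 tested). Of the 18 genes, 11 rose (1.75% of all tested genes did). They included Mmp2 and Mmp14, a gelatinase and its membrane-bound activator made by fibroblasts, Mmp9, a gelatinase of osteoclasts, neutrophils and migrating keratinocytes, and the inhibitors Timp1 and Timp2. Mmp14 had normalized counts of 523.4, 504.1 and 536.1 at 0 hours and 3880, 5158 and 3661 at 14 days. The spread within each group was small against the difference between them, and the log2 fold change was 2.85 ± 0.19 (SE, adjusted p = 0.003 by edgeR) without replicate 2 and 3.02 with it. Timp1 rose by 4.73 ± 0.66 on the log2 scale (SE, adjusted p = 0.0214 by edgeR), Mmp2 by 3.03 and Timp2 by 2.42. Mmp9 had 132, 38.4 and 33.7 counts at 0 hours and 860, 1560 and 3612 at 14 days, with no overlap and a log2 fold change of 5.06 ± 0.81 (SE, adjusted p = 0.0344 by edgeR) without replicate 2. Adamts4, an aggrecanase, Mmp23, Mmp12 and Mmp19 had log2 fold changes of 3.63, 2.66, 2.26 and 2.25.

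Mmp13, the collagenase of bone and cartilage, and Mmp3, stromelysin 1, differed most between digits of the same group. Mmp13 had normalized counts of 78, 8.17 and 33.7 at 0 hours and 618.5, 57.3 and 3846 at 14 days. Replicate 3 was more than 6 times above replicate 1, and replicate 2 lay among the 0-hour digits. The log2 fold change was 5.85 ± 1.03 without replicate 2 (SE, adjusted p = 0.0454 by edgeR) and 5.25 with it (adjusted p = 0.388). Mmp3 had 48, 22.1 and 68.4 counts at 0 hours and 402.2, 97 and 3354 at 14 days, with the same order of the 14-day digits and no overlap. Its log2 fold change was 5.34 ± 0.90 (SE, adjusted p = 0.0382 by edgeR) without replicate 2.

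Mmp13, Mmp3 and Mmp12, the macrophage elastase, lie together on chromosome 9, and the bases before their start sites are shown because each holds TGAGTCA or its reverse complement TGACTCA, the sequence known to be bound by AP-1 factors such as FOS and JUN. The letters are from RefSeq (GRCm38.p6, plus strand), 120 bases up to the base before the start, with the match in capitals.
Mmp13, chr9:7272394-7272513: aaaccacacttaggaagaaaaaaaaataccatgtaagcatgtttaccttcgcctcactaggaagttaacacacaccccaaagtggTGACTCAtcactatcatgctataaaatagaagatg
Mmp3, chr9:7445702-7445821: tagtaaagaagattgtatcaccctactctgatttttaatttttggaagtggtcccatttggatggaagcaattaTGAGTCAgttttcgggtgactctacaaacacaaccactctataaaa
Mmp12, chr9:7347254-7347373: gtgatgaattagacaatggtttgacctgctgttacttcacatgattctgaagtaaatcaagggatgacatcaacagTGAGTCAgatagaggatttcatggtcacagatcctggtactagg
The match begins 35 bases before the start of Mmp13, 46 before that of Mmp3 and 44 before the 1 of 2 starts of Mmp12 that has it. In windows of 300 bases, from 250 before to 50 after the start, and on either strand, it was present for 3 of the 7 called genes of the list with a RefSeq promoter (42.9%), for 14 of 173 genes called higher (8.09%) and for 5.95% of all 27025 genes with a promoter. Fos and Jun themselves were not called. Fos, the immediate early gene, had 12750, 2934 and 1261 normalized counts at 0 hours and 439.6, 394.4 and 944 at 14 days (log2 fold change -3.06, adjusted p = 0.247 by edgeR without replicate 2), and none of 15 immediate early genes was called. A match is a description of the sequence and not of binding in these digits.

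Some genes of bone-forming and bone-resorbing cells were also higher. Of 16 tested osteoblast and osteocyte genes, Runx2, Ibsp, Col24a1 and Pth1r rose (1.75% of all tested genes did). The median of the list was 1.88 without replicate 2 (16 tested) and 1.43 with it (14 tested). Ibsp, which encodes bone sialoprotein, had normalized counts of 484.4, 419.1 and 308.1 at 0 hours and 4154, 311.7 and 2077 at 14 days. Replicates 1 and 3 stood clear of the 0-hour digits and replicate 2 lay among them, and the log2 fold change was 2.95 ± 0.36 without replicate 2 (SE, adjusted p = 0.014 by edgeR) and 2.43 with it (adjusted p = 0.558). Runx2, the transcription factor that commits cells to the osteoblast lineage, had 61.5, 52.3 and 52.9 counts at 0 hours and 257.7, 17.5 and 157.1 at 14 days. Here replicate 2 was below all 0-hour digits, and the log2 fold change of 1.90 ± 0.31 (SE, adjusted p = 0.0364 by edgeR) was that of replicates 1 and 3.

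Of 8 tested osteoclast genes, Ctsk and Atp6v0d2 rose (1.75% of all tested genes did). The median of the osteoclast list was 1.05 without replicate 2 and 0.724 with it. Ctsk, cathepsin K of bone resorption, which fibroblasts also make, lies on chromosome 3 (95499256 to 95509362, plus strand) and had normalized counts of 271.5, 139.7 and 134 at 0 hours and 2970, 1458 and 3694 at 14 days. The groups did not overlap, and the log2 fold change was 4.19 ± 0.38 without replicate 2 (SE, adjusted p = 0.00608 by edgeR) and 3.90 with it (adjusted p = 0.167). Atp6v0d2, a proton pump subunit of osteoclasts, had 0, 1.63 and 1.82 counts at 0 hours and 102.1, 17.5 and 208.7 at 14 days, also without overlap. Of 14 tested cartilage genes, Acan (log2 fold change 2.65), Col11a1 (4.49) and Matn3 rose (1.75% of all tested genes did). Only 10 of the 14 had a positive log2 fold change, so that some members went the other way. The median of the cartilage list was 0.939 without replicate 2, 1.53 with it and -0.061 in intermediate digits. Acan encodes aggrecan, Col11a1 a minor fibrillar chain and Matn3 a matrilin. Matn3 was at 0 in all 3 digits at 0 hours and had 57.6, 27 and 39.5 normalized counts at 14 days, which is at least 10.8-fold higher without replicate 2 and at least 9.2-fold higher with it, taking 3 counts in the smallest 0-hour library as the floor.

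Red blood cell transcripts fell. Of 6 tested erythroid genes, Hba-a1, Hba-a2, Hbb-bs, Hbb-bt and Alas2 were called lower (0.17% of all tested genes were), with a median log2 fold change of -6.33 over the list without replicate 2 and -5.14 with it. In all 6 digits, 5 of 5 tested lay lower in every 14-day digit than in every 0-hour digit, against 8.25% of all tested genes. The adult alpha-globin genes Hba-a1 and Hba-a2 are nearly identical, as are the beta-globin genes Hbb-bs and Hbb-bt, so that the split of reads within each pair is uncertain. Hbb-bs had normalized counts of 3336, 3787 and 4034 at 0 hours and 7.07, 289.5 and 22.9 at 14 days. All 3 digits at 14 days were below the 0-hour digits, and replicate 2 had the most of the 3. The log2 fold change was -7.90 ± 0.55 without replicate 2 (SE, adjusted p = 0.003 by edgeR) and -5.14 with it (adjusted p = 0.318). Hba-a2 behaved alike, with 38.4, 744.3 and 57.4 counts at 14 days against 3786 to 6767 at 0 hours. Hba-a1 was at 0 in all 3 digits at 14 days and at 130.5 to 286.8 at 0 hours, at least 71.8-fold lower without replicate 2 and at least 45.6-fold lower with it. Alas2, the first enzyme of haem synthesis in red cell precursors, had a log2 fold change of -5.57.

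Of the other leading falls, Myoc, a secreted glycoprotein, had normalized counts of 773.9, 622.5 and 477.7 at 0 hours and 48.5, 308.5 and 23.7 at 14 days. Replicate 2 was much nearer to the 0-hour digits than the other 2, and without it the log2 fold change was -4.13 ± 0.43 (SE, adjusted p = 0.00781 by edgeR), and with it -2.31. Nov, a CCN family matricellular gene, Scara5, a scavenger receptor of stromal cells, and Abca8a, a membrane transporter, had log2 fold changes of -2.84, -2.22 and -2.52, and all 3 digits at 14 days were below all digits at 0 hours for each. Tnxb, tenascin-X of resting connective tissue, had 1446, 1235 and 1188 counts at 0 hours and 386.1, 1929 and 312 at 14 days. Its fall of 1.89 on the log2 scale (adjusted p = 0.0119 by edgeR) rested on replicates 1 and 3, since replicate 2 was above all 0-hour digits. Hhip, a cell surface protein that binds Hedgehog ligands, had 222, 213.2 and 152.2 counts at 0 hours and 39.4, 23.9 and 60.3 at 14 days, with no overlap (log2 fold change -1.97 ± 0.33, SE, adjusted p = 0.0386 by edgeR, without replicate 2).

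Among the epidermal lists, Krt6a and Krt17 of 15 wound-induced keratinocyte genes rose (1.75% of all tested genes did). Krt6a had normalized counts of 6895, 7632 and 5956 at 0 hours and 18520, 36810 and 27750 at 14 days. The groups did not overlap, and the log2 fold change was 1.76 ± 0.30 without replicate 2 (SE, adjusted p = 0.0382 by edgeR) and 2.02 with it (adjusted p = 0.365). Close relatives among the keratins share sequence, so these values are uncertain to that extent. None of 11 basal keratinocyte genes and none of 17 cornified envelope genes was called, with medians of -0.096 and 0.185 without replicate 2 and of 0.187 and 0.058 with it. Sprr2a2, a small proline-rich protein of the stressed epidermis that overlaps its near copy Sprr2a1, had 22.5, 13.9 and 12.8 counts at 0 hours and 243.6, 241.7 and 3077 at 14 days.

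The 14-day digits differed among themselves in nail and inflammation genes. Krt36, a hard keratin, had normalized counts of 1900, 482 and 2792 at 0 hours and 25120, 30100 and 27.3 at 14 days, and Krt84, a further hard keratin, had 32420, 30650 and 49.5 at 14 days. Replicate 3 was thus below all the others for both, and replicates 1 and 2 were above all the 0-hour digits. The 0-hour digits also differed widely among themselves in nail genes. The hard keratin list summed to 74684, 3649 and 12185 normalized counts in replicates 1, 2 and 3 at 0 hours. At 14 days it summed to 77337, 101866 and 2630. No hard keratin of 20 tested was called. S100a8 and S100a9, the calprotectin subunits of neutrophils and stressed keratinocytes, went the other way. S100a9 had 24, 32.7 and 35.6 counts at 0 hours and 39.4, 194 and 4121 at 14 days, and the chemokine Cxcl5 had 23.2, 0 and 1664 at 14 days. Their log2 fold changes without replicate 2, 6.04 and 8.36, were not called (adjusted p = 0.129 and 0.0799 by edgeR). Replicate 3 was also the digit with the most Mmp13, Mmp3, Mmp9 and Sprr2a2. The label of this library shares its animal mark, date and side with replicate 1 of the intermediate digits at 14 days. Such sharing is not particular to this library. Replicate 1 at 0 hours and replicates 2 and 3 of the intermediate digits at 0 hours each share theirs with a non-regenerative digit at 12 hours. Whether a label is wrong or marks were used again is not given. Replicate 1 of the intermediate digits at 14 days had the most S100a9 (3517), Sprr2a2 (2258) and Mmp13 (2258) of the intermediate digits at 14 days, but 10200 counts of Krt36, on the scale of the 6 intermediate digits at these times.

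Markers of other cell types are set beside the 1.92% of all tested genes that were called. Of 14 tested macrophage genes only Ctss, a lysosomal protease, was called, with 575.9, 450.1 and 445.8 normalized counts at 0 hours and 1452, 752.3 and 1533 at 14 days (log2 fold change 1.60 ± 0.20, SE, adjusted p = 0.0157 by edgeR). All digits at 14 days were above the 0-hour digits for this gene. The median of the list was 1.10 without replicate 2 and 1.59 with it. Its summed count was 2069 to 2835 at 0 hours and 5410, 11269 and 4428 in replicates 1, 2 and 3 at 14 days, so that its highest value is that of replicate 2. The 15 neutrophil genes, of which 6 could be tested, summed to 247 to 334 at 0 hours and to 379, 649 and 6680 in replicates 1, 2 and 3 at 14 days, with a median log2 fold change of 2.55 without replicate 2 and 2.07 with it. What part these cells had in the rise of proteases that they can also make, such as Mmp9 and Mmp12, was not tested. No gene was called among those of T and NK cells, B and plasma cells, mast cells, endothelial cells, Schwann cells, skeletal muscle, adipocytes, melanocytes or sweat glands. Cd79a, a B cell receptor subunit, had 28.5, 30.2 and 57.4 counts at 0 hours and 0, 0 and 2.15 at 14 days (adjusted p = 0.0709 by edgeR without replicate 2). The tested genes of B and plasma cells had a median of -2.39 without replicate 2 (7 tested) and -3.64 with it (4 tested). The 10 contractile genes of myofibroblasts and smooth muscle had a median of -0.482 without replicate 2 and 0.491 with it, so that the sign depends on this library. Among them Acta2, the smooth muscle actin of myofibroblasts, had 2355, 568.6 and 1288 counts at 0 hours and 714.5, 3736 and 1581 at 14 days, and the groups overlapped.

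**Figure D3:**
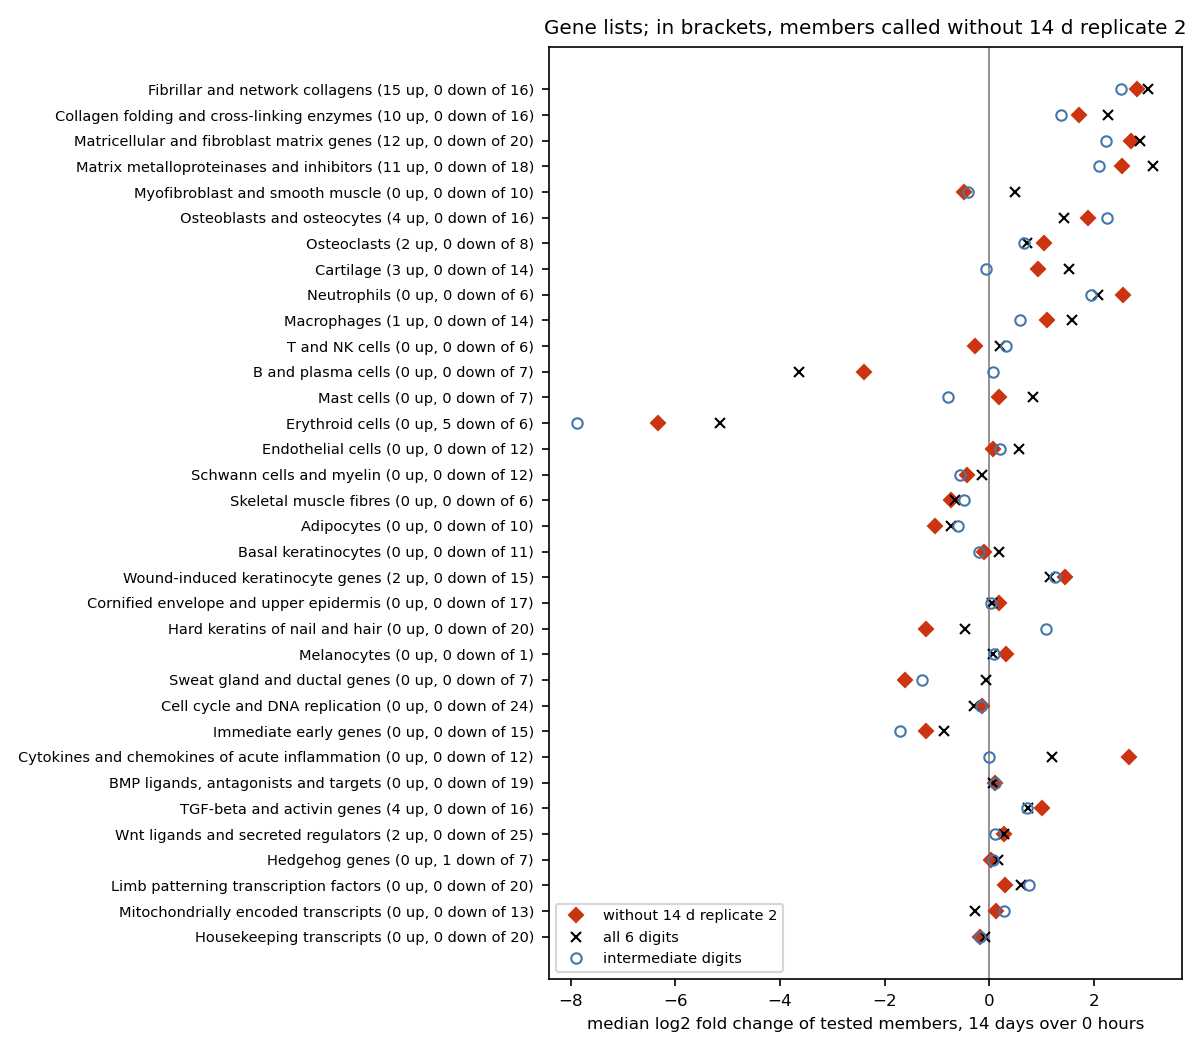
Median log2 fold change of 14 days over 0 hours (horizontal axis) over the tested members of each gene list, for non-regenerative digits without replicate 2 (diamonds), all 6 non-regenerative digits (crosses) and intermediate digits (circles). The 4 matrix lists lie above 1 in each of the 3 comparisons and the erythroid list lies below -5 in each.

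Over all tested genes 1.75% were called higher and 0.17% lower without replicate 2. A list of about 20 genes with none called is close to these shares. Of 16 TGF-beta and activin genes, Tgfb3, Tgfbr1, Tgfbi and Ltbp2 rose, a ligand, a type I receptor, an induced matrix protein and a matrix-bound relative of the latent ligand's carrier. Tgfb3 had normalized counts of 168, 215.7 and 262.6 at 0 hours and 1687, 1392 and 1091 at 14 days. The groups did not overlap, and the log2 fold change was 2.69 ± 0.27 (SE, adjusted p = 0.00781 by edgeR) without replicate 2 and 2.69 with it (adjusted p = 0.205). Of 25 Wnt genes, the secreted regulators Dkk3 (log2 fold change 2.56) and Sfrp2 (2.62) rose. None of 19 genes of the BMP list was called. Bmp2, a bone morphogenetic protein that induces bone and patterns digits, had 109.5, 111.9 and 114 counts at 0 hours and 151.6, 60.4 and 103.3 at 14 days. The 14-day digits lay on either side of the 0-hour digits, and the log2 fold change was 0.19 ± 0.28 without replicate 2 (SE, adjusted p = 0.815 by edgeR) and -0.086 with it. Prrx1, a limb mesenchyme transcription factor, had a log2 fold change of 1.04 ± 0.23 (SE, adjusted p = 0.0974 by edgeR), and none of 20 tested limb patterning factors was called. None of 24 cell cycle genes was called either, with a median of -0.146 without replicate 2 and -0.300 with it, and Mki67 had 1945, 2548 and 2248 counts at 0 hours and 1681, 68.4 and 1310 at 14 days.

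The same contrast in intermediate digits shares no library with this one and asks whether digits amputated at a lower level changed alike. The 2 kinds of digit are not far apart in level. Without replicate 2 the non-regenerative digits were labelled 62%, 62% and 75% at 0 hours and 63% and 80% at 14 days. The 80% digit also shares its animal mark, date and side with an intermediate digit at 14 days. Replicate 1 at 0 hours and replicates 2 and 3 of the intermediate digits at 0 hours share theirs with non-regenerative digits at 12 hours. A label may be wrong or marks may have been used again. The intermediate digits were 3 at 0 hours (labelled levels of 52% to 55%) and 3 at 14 days (42% to 54%) of the same strain. There 199 genes were higher and 25 were lower, 1.49% and 0.187% of 13334 genes tested (1.68% in all). Of the 247 genes higher in non-regenerative digits, 136 were also called higher in intermediate digits, which is 55.1% of the former and 68.3% of the latter, and all 247 had a positive log2 fold change there, against 49.3% of all genes tested. Of the 24 lower genes, 12 were called lower in both (50.0% and 48.0%), and all 24 were negative. The 4 matrix lists had 14, 6, 11 and 6 genes called higher in intermediate digits against 15, 10, 12 and 11, and the osteoblast list had 11 against 4.

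The difference between the 2 kinds of digit in their change from 0 hours to 14 days was tested directly. With all 12 digits edgeR called 0 of 14133 genes (507 at an unadjusted p under 0.05), and without replicate 2 it called 0 of 14446 (312 at an unadjusted p under 0.05). DESeq2 called 0 genes with all 12 digits as well. For Cthrc1 the change was 0.14 ± 0.81 larger in non-regenerative digits on the log2 scale, and for Col1a1 it was 0.28 ± 0.63 larger (SE, without replicate 2). For Cpxm1 it was 3.48 ± 0.77 larger and for Mmp3 3.60 ± 0.97 larger, each with an adjusted p of 1 by edgeR. Mmp3 had 122.8, 59.6 and 136.3 normalized counts in intermediate digits at 0 hours and 512.5, 276.9 and 258.6 at 14 days. The change in Ibsp was 1.04 ± 0.77 smaller in non-regenerative digits (difference -1.04), again with an adjusted p of 1.

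**Figure D4:**
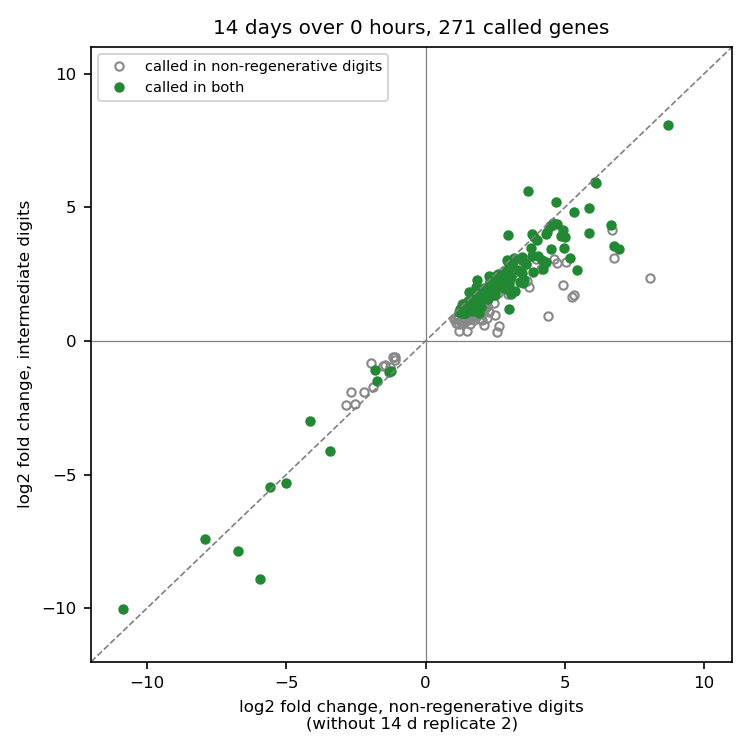
Log2 fold change of 14 days over 0 hours in non-regenerative digits without replicate 2 (horizontal axis) and in intermediate digits (vertical axis). Each point is 1 of the 271 genes called in non-regenerative digits, filled where the gene was called in the same direction in intermediate digits. All points lie below 0 on both axes or above 0 on both, and the dashed line marks equal change.

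The other non-regenerative digits place the 14-day values in time, on a common scale of all 29 digits. The median normalized count of Col1a1 was 4560 at the time of surgery and 1990 by 24 hours. It was 15400 by day 3, 33200 by day 7, 125000 by day 14 and 45300 by day 21. The lowest digit at 14 days (75000) was above the highest at 21 days (59000) and just below the highest at 7 days (76900). Cthrc1 was still at a median of 39.6 after 24 hours, then reached 277 by day 3, 1160 by day 7 and 1380 by day 14, and stood at 633 by day 21, and the digits of the last 3 times overlapped. Ctsk went from a median of 473 on day 3 to 1510 on day 7 and 2460 on day 14, and was 986 on day 21. Mmp13 followed another course, since its median was 27.6 in the fresh wound, 756 after 12 hours and 959 after 24 hours. It was 192 on day 7 and 511 on day 14, where the digits ran from 45.3 to 3090. The median of Hbb-bs was 3100 in the fresh wound, 736 at 3 hours, 81.5 at 24 hours and 18.4 by day 14. These medians are a description, with no test. The medians at 14 days include replicate 2.

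**Figure D5:**
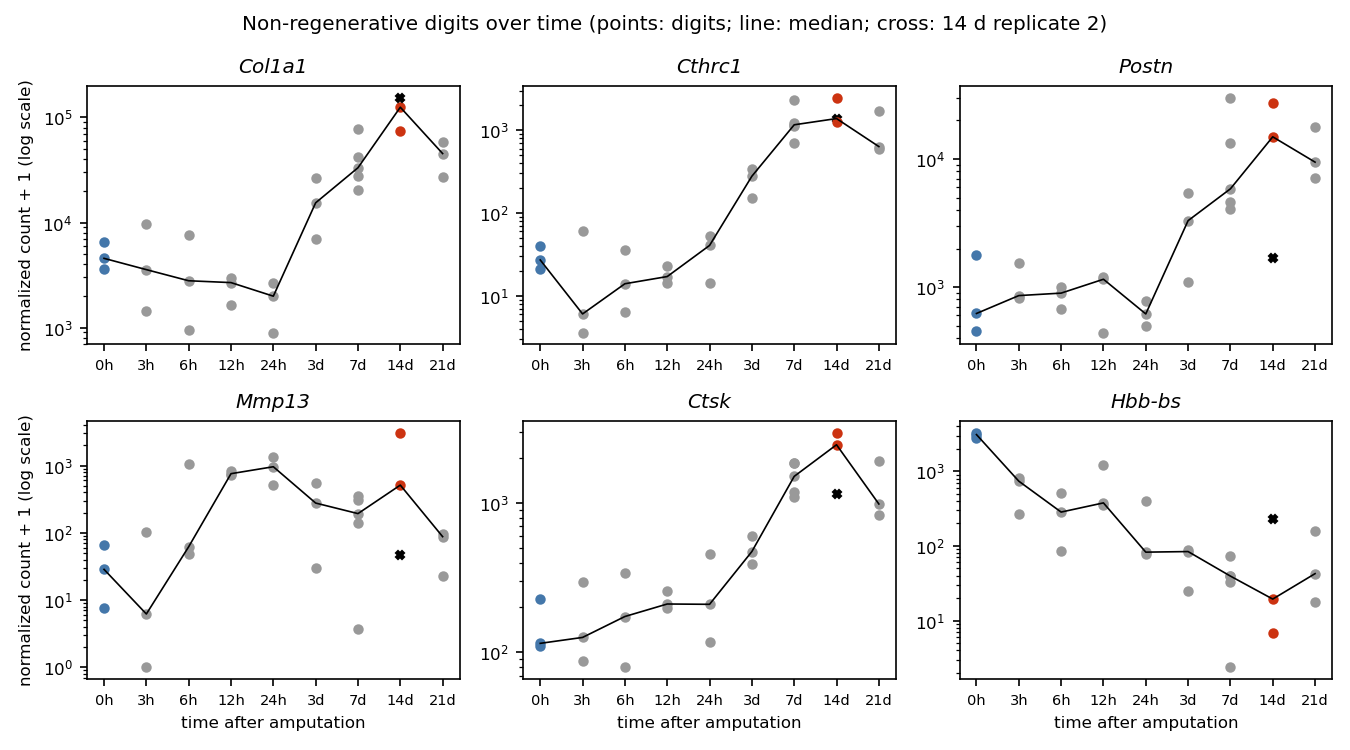
Normalized count plus 1 (vertical axes, log scale) of 6 genes in the 29 non-regenerative digits by time after amputation (horizontal axes, not to scale). Points are digits, blue at 0 hours and red at 14 days, the black cross is replicate 2 at 14 days, and lines join medians. Col1a1, Cthrc1, Postn and Ctsk have their highest median at 14 days, Mmp13 at 24 hours and Hbb-bs at 0 hours.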

How the data were processed

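Reads of poly(A) RNA were mapped by the authors to mouse genes (GRCm38) with Bowtie, and the deposited expected counts come from RSEM 1.2.3, without normalization. The authors also deposited a signal table, TPM after median-by-ratio scaling of the libraries, used here for levels per length. Of 21954 genes, 26 names that had become dates were restored. Digits were grouped by their labels, and replicates were numbered in accession order. The labels name separate digits and not always separate animals, so p-values measure the spread between digits.

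Expected counts were rounded and tested in R 4.3.3 with edgeR 4.0.16 (filterByExpr, TMM, glmQLFit, glmQLFTest, Benjamini-Hochberg adjustment) on the 2 groups alone. Normalized counts are TMM-scaled. Alternatives used DESeq2 1.42.0, limma 3.58.1, other scaling, no filter, no fold threshold, the date period, all non-regenerative digits, each library left out and, chosen after seeing the data, a GC offset per library. The code was tested on simulated data with the dispersion of these digits. In all 6 digits edgeR called 5 of 100 genes changed 4-fold, 62 of 100 changed 16-fold and 2 unchanged genes. Without replicate 2 it called 78 of 100, 99 of 100 and 18 unchanged genes. The paper used EBSeq at the same fold threshold, which was not used here. SE is the log2 fold change over the root of the F statistic. A count of 0 allows up to 3 counts, which covers counting error only. Pairs of replicates differed by a chi-square of 10.2 to 411 per degree of freedom, so none was a duplicate library.

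The comparison and the gene lists were chosen with earlier results of these data known. Named genes are the 12 largest called rises and falls without overlap and with a mean of at least 100 normalized counts, list members that were called, up to 3 of the most abundant members of lists with none called, and Bmp2; placeholder names were passed over. Of the genes so selected, 1 gene is not reported here. Col14a1 was named after its value was seen. Coordinates are from GENCODE. Whether counting used strand is not given in the sources used here, so overlapping genes such as Col4a1 and Col4a2, Mmp12 and Mmp1b, or Timp1 and Syn1 are uncertain. Macrophage tables were not used.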

Additional observations from a re-analysis of the deposited data

How the results depend on the processing

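In all 6 digits, where the reported count was 0, the count of called genes was 4 with no filter on low counts, 13 with the GC offset chosen after seeing the data (10 higher, 3 lower, all among the 271), 228 with all non-regenerative digits in the model, 256 with the date period added to that, 354 with DESeq2 and 825 with limma and library weights, and ran from 0 to 271 with a library left out. Without replicate 2 (271 genes), the count was 108 with all non-regenerative digits in the model, 142 with the date period added to that, 461 with the date period alone, 465 with no filter, 606 with limma and weights and 753 with DESeq2 (586 higher, 167 lower), and ran from 27 to 482 with a library left out. In intermediate digits (224 genes) it was 506 with DESeq2 and 377 with the date period, and ran from 23 to 393 with a library left out. The difference between the 2 kinds of digit gave 0 genes under each alternative run. The 73 abundant genes at 0 in replicate 2 became 404 at a minimum of 20 and 1 at a minimum of 500. The 84 called genes named made 1092 pairs of a gene and an alternative fit without replicate 2. They kept their direction in all of these pairs and were called in 829. The groups did not overlap for any of the 271 called genes in these same digits, so that their direction was largely fixed by the choice. Bmp2 changed sign, to 0.039 with limma from all 6 digits; with a library left out its log2 fold change ran from -0.45 to 0.19 from all 6 digits and from -0.13 to 0.43 from the 5. No paired analysis was possible because the labels carry no replicate numbers and no animal mark with its date occurs at both times; the date period was used as a term instead. Where leaving out a library leaves 1 digit in a group, it is assumed to vary like the others. Why the counts moved was not tested. Depth limits genes near 3 counts in the smallest library.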

Other observations

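With a GC offset fitted to each library, all 6 digits could be tested with replicate 2 included, and 13 genes were called: Alas2, Hba-a1 and Hbb-bt lower and C1qtnf6, Clec4n, Col12a1, Cpxm1, Cthrc1, Ctsk, Emilin1, Fkbp10, Lox and Thbs2 higher. Their log2 fold changes ran from 2.88 for Fkbp10 to 7.06 for Cpxm1 among the risers. C1qtnf6, Clec4n and Emilin1 lie outside the rule for named genes and are named after their values were seen.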
